A study of Mus musculus with 22 samples.

Results

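The kinesin and tubulin genes of the mouse testis were described here in wild-type (WT) and MLX KO animals. Members were taken from the gene symbols of the deposited count table that begin with *Kif*, *Kifc* or *Klc* and a number, or with *Tuba*, *Tubb*, *Tubg*, *Tubd* or *Tube*. The choice went by name and not by a threshold on measured values, although the theme was picked with earlier results of these data known. There were 63 members among the 17931 symbols in the table, 43 kinesins (motor and light chains) and 20 tubulins. Microtubules are polymers of α- and β-tubulin dimers, each encoded by several genes (isotypes), and are nucleated from γ-tubulin rings, while δ- and ε-tubulin act in centrioles. Kinesins are motors that walk along microtubules with cargo, or that slide or dismantle them. In the testis, microtubules build the spindles of dividing spermatogonia and spermatocytes, the manchette that shapes the spermatid head, the axoneme of the sperm tail, and the tracks inside Sertoli cells, which nurse the germ cells.

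RNA was taken from whole testes of 3 WT males, proven to be fertile, and 3 males with a constitutive whole-body deletion of *Mlx* exons 3 to 6 made in 129S4 embryonic stem cells, all aged 7 months. The animals were age-matched littermates in 3 pairs and received no treatment, and all cell types of a KO testis carried the deletion. MLX is a basic helix-loop-helix leucine zipper transcription factor that binds DNA together with the glucose-sensing factors MondoA and ChREBP. The comparison asks how the transcripts of motors and tubulins differ in whole testes that lack functional MLX.

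*Mlx* itself, on chromosome 11, was counted 128, 96 and 98 times in the WT libraries and 94, 109 and 102 times in the KO libraries (log2 fold change, LFC, -0.18, SE 0.14, adjusted p = 0.326, edgeR quasi-likelihood test). The count spans the undeleted exons too, so it does not check the genotype labels, and directions below are those of libraries labelled KO against those labelled WT. The 6 libraries held 16674678 to 19742726 counts. Libraries of 1 genotype differed from each other by 2.74 to 8.29 times the sampling variance, most for KO1 against KO2 or KO3. Elongating spermatid markers (*Prm1*, *Tnp1* and 6 others) were lower in KO testes for 8 of 8 genes, with a summed level of 20797 to 21756 CPM (counts scaled to a common, composition-adjusted library size) in WT and 12218 to 14963 in KO. Sertoli cell markers were higher for 8 of 8 (884 to 933 CPM in WT, 1361 to 1646 in KO), Leydig cell markers for 6 of 6 (735 to 756 and 1661 to 2117) and macrophage markers for 7 of 7 (75.3 to 80.9 and 158 to 165). Round spermatid markers were lower for 5 of 5 (704 to 736 and 613 to 626), and 4 of 6 spermatocyte markers were lower and 0 higher (1434 to 1489 and 1266 to 1328), but only 1 of each passed with library size alone, and the spermatocyte count was 1 without WT1 or KO2 and 2 without KO3. Of 7 spermatogonium markers, 2 were higher (1 without WT1, WT2, KO2 or KO3) and 0 lower (107 to 115 and 130 to 141). Of 5 endothelial markers, 2 were higher (33.6 to 42.5 and 48.3 to 55.8), and of 5 peritubular myoid markers, 3 were higher and 1 lower (303 to 359 and 293 to 314). The part of these cell types in the changes below was not tested, and in bulk tissue fewer cells of a type and less RNA per cell cannot be told apart.

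Kinesin and tubulin transcripts moved in both directions, with small decreases of many members and larger increases of a few. Of the 60 members with enough counts for testing, 33 were differentially expressed genes (DEGs, by the quasi-likelihood test of edgeR, with p-values adjusted by Benjamini-Hochberg over 14640 genes and a threshold of 0.05). Of these, 9 were higher and 24 lower in KO, and 27 did not pass. Over all genes tested, 45.4% passed, 24.8% higher and 20.6% lower. The share of members that were higher (15.0%) was thus under that of all genes, and the share that were lower (40.0%) above it. CPM ranges of the genotypes did not overlap for 37 of 60 members (61.7%, against 56.2% of all genes). The 33 DEGs were all among these members, which by itself sets their direction in each littermate pair. Increases lay between 0.40 and 0.77 on the log2 scale and decreases between -0.46 and -0.15, so that 8 of the 9 higher members and 0 of the 24 lower members reached an absolute LFC of 0.5. The median LFC was -0.16 over the members and 0.03 over all genes.

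The number of lower members depended on the scaling. With counts scaled by library size alone, without the composition factors of TMM, 11 members were higher and 11 lower, and the median LFC of all genes moved to 0.16 and that of the members to -0.02. This scaling shifts all genes by about the same amount, and 13 of the 24 decreases no longer passed under it, among them those of *Kif21b*, *Tubd1* and *Kif19a*. Of the 33 calls, 8 of the 9 higher ones and 11 of the 24 lower ones passed under each of 14 other settings, and 0 reversed. The 11 stable decreases were those of *Kif20a*, *Kif27*, *Kif2a*, *Kif2c*, *Kif5c*, *Klc3*, *Tuba3a*, *Tuba3b*, *Tuba4a*, *Tuba8* and *Tubb4b*.

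**Figure D1:**
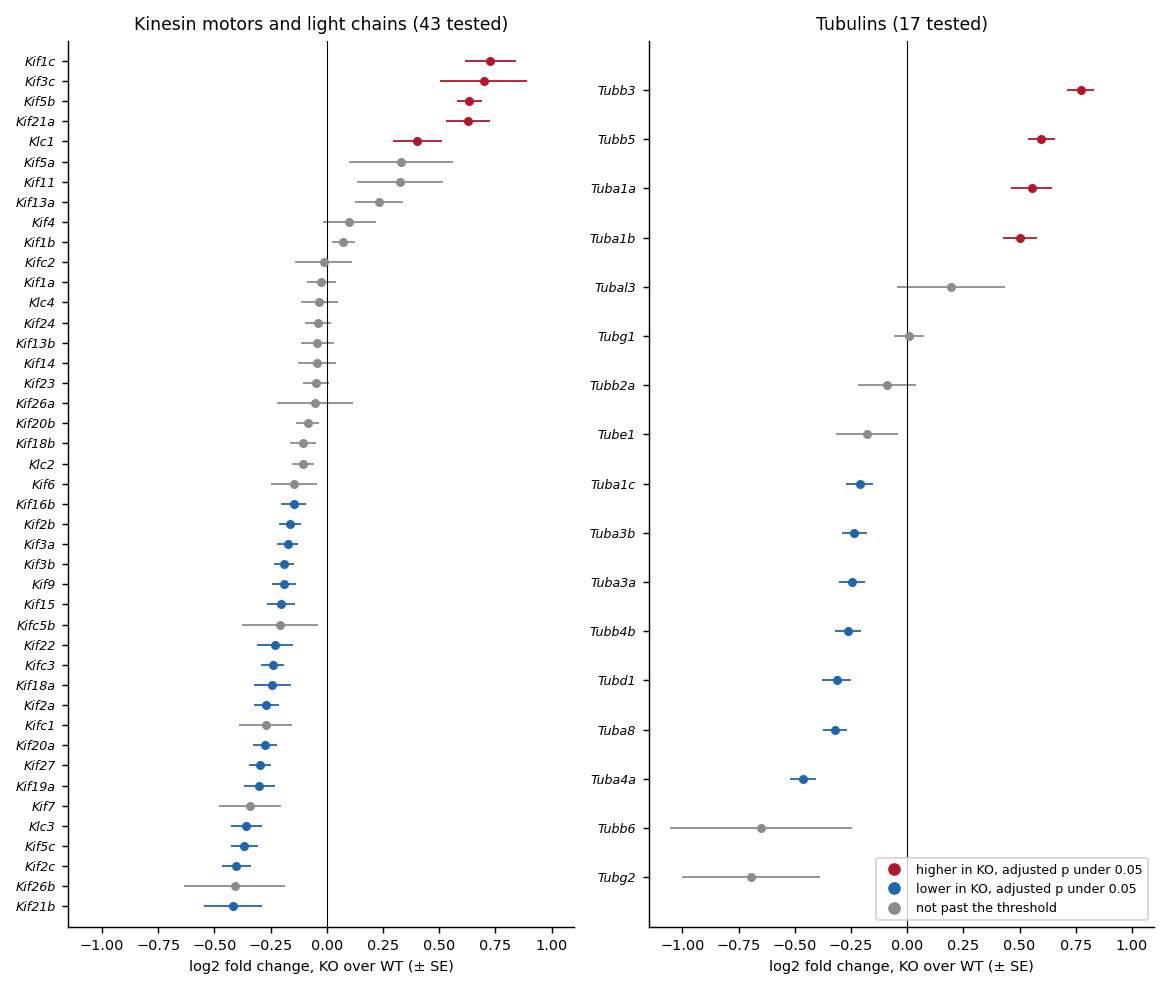
LFC of KO over WT (x axis, log2, bars are the SE of the fit, 3 libraries per genotype) for each tested kinesin (left) and tubulin (right), sorted by LFC. The 9 red members (higher) lie between 0.40 and 0.77, the 24 blue members (lower) between -0.46 and -0.15, and grey members did not pass an adjusted p of 0.05.

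Among α-tubulins, the subunit of the dimer that faces the minus end, 2 of 8 genes were higher and 5 lower in KO testes. These shares were 25.0% and 62.5%, against 24.8% and 20.6% of all genes. The 5 lower genes all had a mean level of at least 20 CPM per kb of exon. Of all genes at that level, 61.6% were lower. The class was dominated by *Tuba3a* and *Tuba3b*, isotypes enriched in the testis. *Tuba3a*, the most abundant α-tubulin per length, had 19035, 16869 and 19202 counts in WT libraries 1 to 3 and 18304, 15617 and 16169 in KO libraries 1 to 3. Scaled by composition-adjusted library size and exon length, this is 698 ± 28.6 CPM per kb (SD, n = 3) in WT and 588 ± 32.3 in KO. *Tuba3a* thus fell by 0.25 on the log2 scale (SE 0.06, adjusted p = 0.00457, edgeR), and the scaled ranges did not overlap although the raw counts did. *Tuba3b* went from 619 ± 22.6 to 526 ± 25.1 CPM per kb (SD, n = 3; LFC -0.23). The pair shares sequence, with 32.4% of the 50-base words of *Tuba3a* transcripts also found in *Tuba3b*, so that how reads were split between both is uncertain. *Tuba8*, a divergent α-tubulin known from testis and muscle, went from 168 ± 0.281 to 135 ± 9.21 CPM per kb (SD, n = 3; LFC -0.32), with 16.3% of its exon bases in *Gm15856* exons on the opposite strand.

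*Tuba4a*, which lacks the encoded C-terminal tyrosine of other α-tubulins, had the largest decrease of all members past the threshold. Its counts were 2815, 2418 and 2631 in WT and 2195, 2058 and 1876 in KO (LFC -0.46, SE 0.06, adjusted p = 1.32e-04, edgeR). The 3 KO counts all lay under the lowest WT count. Of its exon bases, 37.3% also lie in exons of *Stk16* on the opposite strand, and whether counting used strand is not given in the sources used here. *Tuba1c* was slightly lower (LFC -0.21) and did not pass with library size alone, with the littermate pair as a block in DESeq2 (adjusted p = 0.0540), or without WT2 or KO3.

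The opposite direction was seen for *Tuba1a* and *Tuba1b*, more broadly expressed α-tubulins. *Tuba1a* had 590, 492 and 467 counts in WT against 930, 704 and 817 in KO (LFC 0.55, SE 0.09, adjusted p = 6.6e-04, edgeR). *Tuba1b* had 405, 372 and 404 counts in WT against 577, 581 and 641 in KO (LFC 0.50, SE 0.08, adjusted p = 4.2e-04, edgeR). Each KO count of both genes exceeded each WT count. The 3 *Tuba1* genes lie together on chromosome 15 and are near copies, with 72.9%, 66.7% and 52.7% of the words of *Tuba1a*, *Tuba1b* and *Tuba1c* shared with other genes, so the values of each carry the uncertainty of read assignment. In addition, 26.2% of the exon bases of *Tuba1a* and 22.7% of those of *Tuba1b* lie in exons of *Gm49450* on the same strand. *Tubal3*, a rare α-like tubulin, had 23 to 28 counts in WT and 28 to 36 in KO and did not pass (LFC 0.20, adjusted p = 0.532, edgeR).

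Among β-tubulins, the subunit of the dimer that hydrolyses GTP, 2 of 5 tested genes were higher and 1 lower. These shares were 40% and 20%, against 24.8% and 20.6% of all genes. *Tubb4b*, the β-tubulin of axonemes and the most abundant tubulin of these testes, had 31261, 26928 and 29145 counts in WT against 28924, 24314 and 25166 in KO. Per length, it went from 799 ± 18.4 to 666 ± 42.5 CPM per kb (SD, n = 3), with an LFC of -0.26 (SE 0.06, adjusted p = 0.00331, edgeR). The scaled values separated the genotypes, while the raw count of KO1 exceeded that of WT2. A processed copy, *Tubb4b-ps1*, shares 32.4% of its words.

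*Tubb3*, the β-tubulin best known from neurons and also present in Sertoli cells, was the member with the largest increase. It had 599, 550 and 602 counts in WT against 1141, 1026 and 1055 in KO (LFC 0.77, SE 0.06, adjusted p = 7.28e-06, edgeR). *Tubb5*, a widely expressed β-tubulin, had 1150, 955 and 963 counts in WT against 1700, 1697 and 1590 in KO (LFC 0.60, SE 0.06, adjusted p = 3.75e-05, edgeR). The groups stood well apart for both genes, and neither shares more than 0.1% of its words with another gene. Both increases passed under each of the 14 other settings, with an LFC of 0.73 to 0.91 for *Tubb3* and 0.54 to 0.74 for *Tubb5*.

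*Tubb6*, another widely expressed β-tubulin, was uneven between animals of the same genotype. It had 577, 811 and 874 counts in WT against 166, 839 and 545 in KO (LFC -0.65, SE 0.40, adjusted p = 0.212, edgeR). The genotypes overlapped, and KO1 was far under KO2 and KO3, yet in each littermate pair the scaled KO value was the lower one. With the pair as a block, *Tubb6* passed in edgeR (LFC -0.81, adjusted p = 0.00226) but not in DESeq2 (LFC -0.94, adjusted p = 0.113), and it also passed without KO2 (LFC -1.22, adjusted p = 0.0261, edgeR). *Tubb2a* had 109 to 158 counts in WT and 127 to 159 in KO and did not pass (LFC -0.09, adjusted p = 0.605, edgeR). Another 3 β-tubulins were too scarce for testing. *Tubb2b* had 1, 0 and 2 counts in WT, at the detection floor of 3 counts per library, and 2, 10 and 4 in KO, a ratio of 4.96 with a 95% counting interval of 1.42 to 26.6. The interval leaves out the spread between animals, and KO2 alone gave 10 of the 16 KO counts. Of the 50-base words of *Tubb2b*, 31.3% are also found in the more abundant *Tubb2a*, so that read assignment is uncertain. *Tubb1* had at most 3 counts and *Tubb4a* at most 1 in any library.

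**Figure D2:**
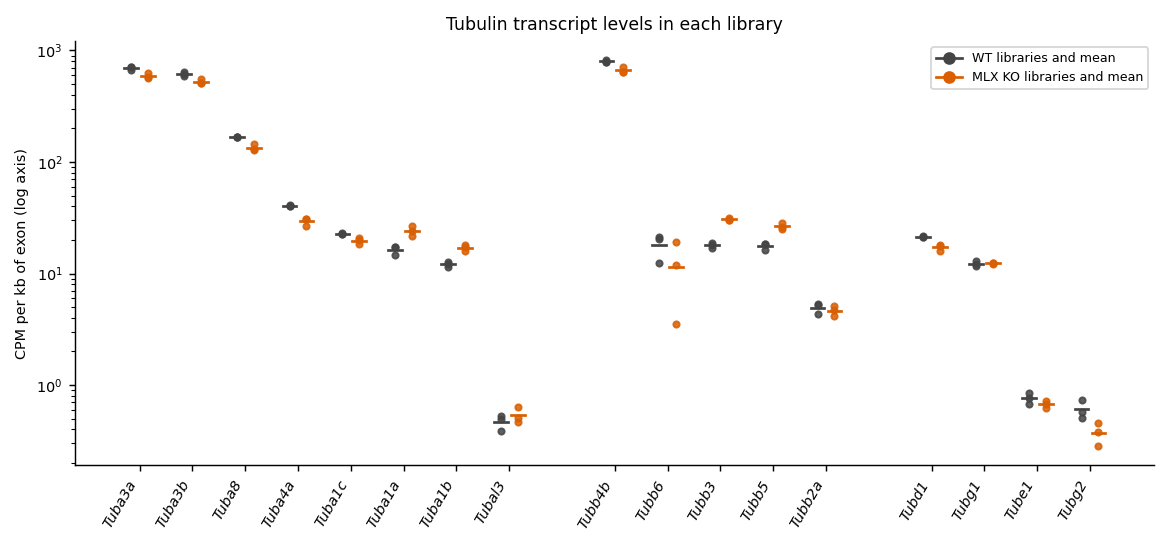
Level of each tested tubulin (y axis, CPM per kb of exon on a log axis) in each library, with WT in grey and KO in orange, dots for libraries and short lines for means of 3, grouped as α, β and other tubulins. *Tubb4b*, *Tuba3a* and *Tuba3b* stand above all others in both genotypes, and *Tubb6* shows the widest spread between libraries.

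Seen as shares of a pool, the isotypes moved against each other. Summed per length, α-tubulins went from 1577 ± 50.3 to 1340 ± 69.5 CPM per kb and β-tubulins from 857 ± 22.0 to 739 ± 37.4 (SD, n = 3). *Tuba1a* and *Tuba1b* together made up 1.88%, 1.88% and 1.66% of α-tubulin in WT and 2.99%, 2.98% and 3.24% in KO. *Tubb3* and *Tubb5* together made up 4.17%, 4.19% and 4.07% of β-tubulin in WT and 7.41%, 8.06% and 7.78% in KO. Neither share overlapped between genotypes. *Tubb4b* made up 93.7%, 92.9% and 92.9% of β-tubulin in WT and 91.5%, 88.6% and 89.9% in KO. *Tuba3a*, *Tuba3b* and *Tuba8* together went from 94.1% ± 0.259 to 93.2% ± 0.138 of α-tubulin, so the axonemal and testis isotypes still made up most of the pool in KO testes. The shares restate the gene values above and were not tested.

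**Figure D3:**
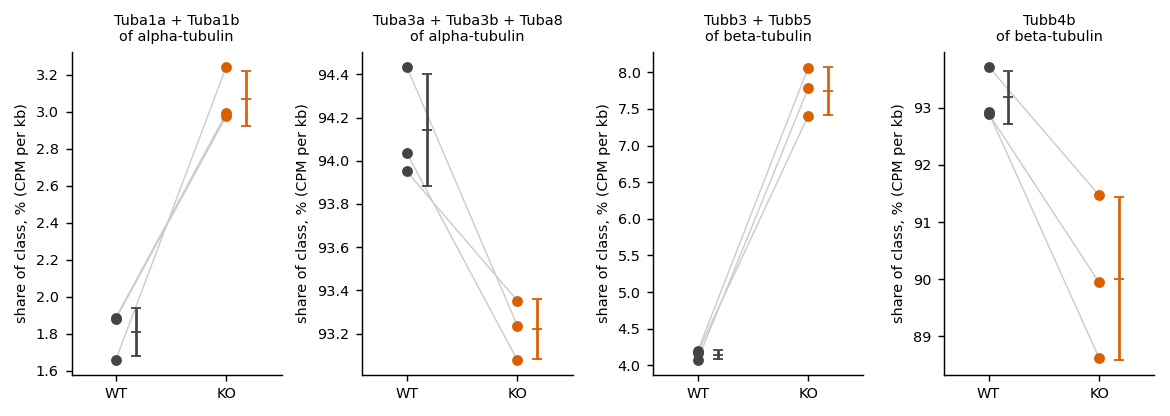
Share of α- or β-tubulin transcripts (y axes, percent of the summed CPM per kb, axes not starting at 0) in each library, with grey lines joining littermates and bars giving mean and SD of 3. *Tuba1a* plus *Tuba1b* and *Tubb3* plus *Tubb5* take larger shares in each KO testis, and *Tubb4b* a smaller one.

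Sequence upstream of a pair of tubulin genes that moved in opposite directions is shown because it holds the E-box CACGTG, the kind of element that MLX and its partners bind. Capitals mark the E-box, which reads the same on both strands, and each sequence runs from 250 bases before to 50 after the RefSeq start on the strand of the gene (build GRCm38.p6). The *Tubb5* sequence is chr17:35838252-35838551 on the minus strand, with the E-box starting 75 bases upstream of the start, and the *Tuba8* sequence is chr6:121210484-121210783 on the plus strand, with the E-box starting 207 bases upstream.
Tubb5: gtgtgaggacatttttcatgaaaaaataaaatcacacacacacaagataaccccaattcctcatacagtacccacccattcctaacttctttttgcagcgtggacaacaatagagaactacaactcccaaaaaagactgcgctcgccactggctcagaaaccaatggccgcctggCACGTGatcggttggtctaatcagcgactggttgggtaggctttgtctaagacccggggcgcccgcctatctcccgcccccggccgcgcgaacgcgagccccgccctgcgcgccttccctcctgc
Tuba8: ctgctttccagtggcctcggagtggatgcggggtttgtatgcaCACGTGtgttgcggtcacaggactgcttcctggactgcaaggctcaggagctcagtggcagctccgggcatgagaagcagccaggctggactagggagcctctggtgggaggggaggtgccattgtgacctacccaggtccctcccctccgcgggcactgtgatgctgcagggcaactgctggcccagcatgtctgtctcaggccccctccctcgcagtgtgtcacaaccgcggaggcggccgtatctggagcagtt
*Tubb5* was higher and *Tuba8* lower in KO testes. Of the 63 members, 51 had a promoter in the RefSeq table, 55 promoters in all. An E-box was present in 4 of them (*Kif1a*, *Klc4*, *Tuba8* and *Tubb5*), or 7.27%, against 7.15% of all 32851 promoters of the same length. The other carriers, *Kif1a* and *Klc4*, did not pass the test. The match describes the letters of these windows only.

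Of the γ-, δ- and ε-tubulins, *Tubd1* (δ-tubulin, of centriole triplets) was the most abundant per length, at 21.3 ± 0.359 CPM per kb in WT and 17.2 ± 1.06 in KO (SD, n = 3). It was lower, with 853, 686 and 776 counts in WT against 640, 671 and 688 in KO (LFC -0.31, SE 0.06, adjusted p = 0.00226, edgeR), and did not pass with library size alone. *Tube1* (ε-tubulin) did not pass (LFC -0.18, adjusted p = 0.319, edgeR). *Tubg1*, the main γ-tubulin that nucleates microtubules, had 420 to 526 counts in WT and 511 to 550 in KO, with an LFC of 0.01 (SE 0.07, adjusted p = 0.920, edgeR) whose sign changed with the setting. *Tubg2*, its paralog, had 19, 14 and 23 counts in WT against 13, 9 and 15 in KO (LFC -0.70, SE 0.31, adjusted p = 0.0854, edgeR). The scaled values of *Tubg2* did not overlap but the counts are few. *Tubg1* and *Tubg2* lie 27.7 and 63.7 kb from *Mlx* on chromosome 11, and 14.3% of the words of *Tubg2* are shared with *Tubg1*.

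Of 43 kinesins, all tested, 5 were higher and 17 lower in KO testes (11.6% and 39.5%, against 24.8% and 20.6% of all genes). Without WT2 or without KO3, 11 were lower, and with library size alone 7 were higher and 6 lower. The levels of the kinesins were uneven. *Kif2b*, a kinesin-13 that depolymerizes microtubules at kinetochores, took 37.5% of the summed WT level per length, followed by *Kif27* (9.96%), *Kif9* (9.42%) and *Kif2c* (8.76%). The first 10 genes in this order held 86.0% of the sum. Of those 10, all but the light chain *Klc2* were lower in KO, and the 5 increases fell on genes further down the order. The order uses WT values alone, which by itself places genes with higher WT values further up. Over all genes with a mean level of at least 20 CPM per kb in the 6 libraries, 61.6% were lower. That cut differs from the WT order, and *Kifc3*, among the 10, was under it (20.8 in WT, 17.6 in KO). The decreases of *Kif2b*, *Kif9*, *Kif3a*, *Kif3b* and *Kifc3* did not pass with library size alone.

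**Figure D4:**
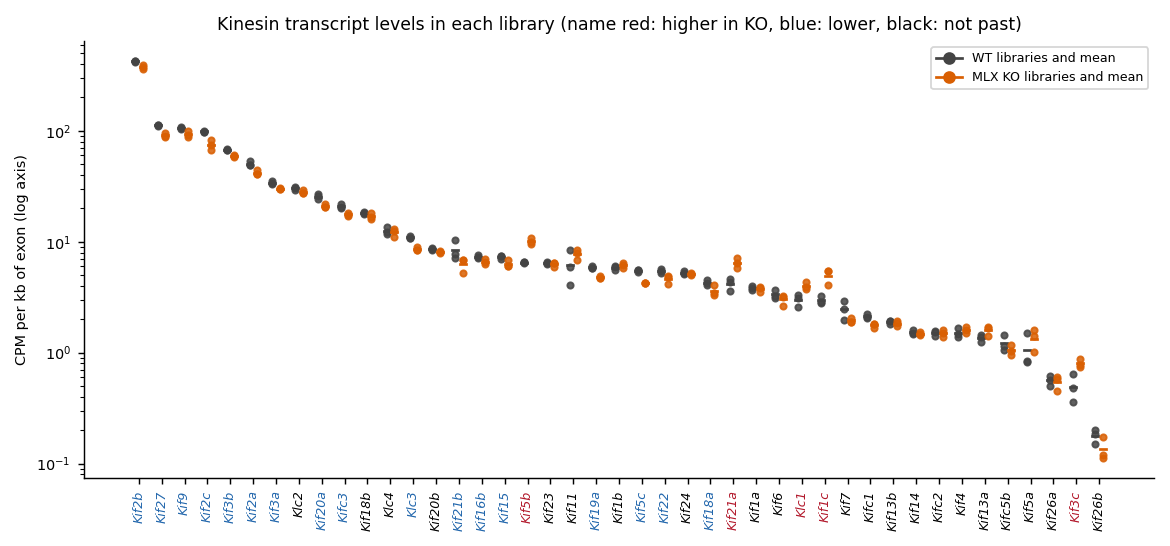
Level of each kinesin (y axis, CPM per kb of exon on a log axis) in each library, ordered by the WT mean, with WT in grey and KO in orange, dots for libraries and short lines for means of 3. Blue names (lower in KO) crowd the left end with *Kif2b*, *Kif27*, *Kif9* and *Kif2c*, and red names (higher) lie in the middle and at the right end.

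Kinesin-1, the main plus-end cargo motor, is built from heavy chains of 3 genes and light chains of 4, and both sets split in direction. *Kif5b*, the ubiquitous heavy chain, had 987, 828 and 902 counts in WT against 1475, 1545 and 1507 in KO (LFC 0.63, SE 0.06, adjusted p = 1.53e-05, edgeR). *Kif5c*, a heavy chain best known from neurons, had 751, 602 and 708 counts in WT against 589, 549 and 578 in KO (LFC -0.37, SE 0.06, adjusted p = 5.71e-04, edgeR). Neither gene overlapped between genotypes, and per length the levels of *Kif5b* and *Kif5c* were 6.50 ± 0.114 and 5.50 ± 0.122 CPM per kb in WT but 10.1 ± 0.592 and 4.26 ± 0.0179 in KO (SD, n = 3). *Kif5a*, the neuronal heavy chain, had 200, 90 and 104 counts in WT against 138, 178 and 210 in KO and did not pass (LFC 0.33, SE 0.23, adjusted p = 0.268, edgeR). WT1 alone was high for *Kif5a*, and without it the gene passed (LFC 0.69, adjusted p = 0.0168, edgeR).

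Of the light chains, which couple kinesin-1 to cargo, *Klc1* was higher, with 239, 165 and 239 counts in WT against 339, 286 and 286 in KO (LFC 0.40, SE 0.11, adjusted p = 0.0108, edgeR). It did not pass with the littermate pair as a block in DESeq2 (adjusted p = 0.0824). *Klc3*, the light chain found on sperm tail mitochondria and outer dense fibres, was lower, with 548, 450 and 534 counts in WT against 461, 403 and 420 in KO (LFC -0.36, SE 0.07, adjusted p = 0.00162, edgeR), and 28.1% of its exon bases lie in *Ercc2* exons on the opposite strand. *Klc2*, the most abundant light chain at 30.4 ± 0.869 CPM per kb in WT and 28.2 ± 0.993 in KO (SD, n = 3), had 2372, 1921 and 2293 counts in WT against 2222, 2192 and 2149 in KO. Its scaled ranges did not overlap, yet it did not pass (LFC -0.11, SE 0.05, adjusted p = 0.0944, edgeR), while it passed as lower with DESeq2 size factors (LFC -0.13, adjusted p = 0.0449, edgeR) and its sign turned with library size alone. *Klc4* did not pass (LFC -0.03, adjusted p = 0.763, edgeR).

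Promoters of 2 kinesin-1 subunits that moved in opposite directions are shown because both hold TGACGTCA, the palindromic cAMP response element (CRE) bound by CREB and CREM, the latter a main activator of spermatid genes. Capitals mark the CRE, and windows and build are as above. The *Klc1* sequence is chr12:111758618-111758917 on the plus strand, with the element starting 33 bases upstream of the RefSeq start used. That start lies inside the annotated gene, which begins at 111758435, and so does the element. The *Kif5c* sequence is chr2:49619036-49619335 on the plus strand, with the element starting 26 bases upstream of the start.
Klc1: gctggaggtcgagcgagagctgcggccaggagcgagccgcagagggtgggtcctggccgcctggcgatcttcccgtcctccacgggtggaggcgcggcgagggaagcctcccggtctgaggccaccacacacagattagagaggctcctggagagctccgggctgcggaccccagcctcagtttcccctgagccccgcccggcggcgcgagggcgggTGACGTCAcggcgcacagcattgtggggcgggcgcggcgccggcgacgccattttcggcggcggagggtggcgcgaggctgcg
Kif5c: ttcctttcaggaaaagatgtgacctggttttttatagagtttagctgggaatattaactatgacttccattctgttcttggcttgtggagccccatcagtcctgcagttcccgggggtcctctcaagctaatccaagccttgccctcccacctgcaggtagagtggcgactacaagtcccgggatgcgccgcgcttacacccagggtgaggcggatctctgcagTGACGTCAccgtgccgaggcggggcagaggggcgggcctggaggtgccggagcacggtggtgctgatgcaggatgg
*Klc1* was higher and *Kif5c* lower. A CRE of these letters was present in 4 of 55 member promoters (*Kif18a*, *Kif5c*, *Klc1* and *Tubb2a*), or 7.27%, against 1.79% of all promoters. Of the other carriers, *Kif18a* was lower and *Tubb2a* did not pass, so the carriers did not share a direction.

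Kinesin-2 motors drive intraflagellar transport and other cargo, with KIF3A paired to KIF3B or KIF3C. *Kif3a* went from 34.0 ± 1.07 to 30.1 ± 0.442 CPM per kb (SD, n = 3; LFC -0.17, SE 0.05) and *Kif3b* from 67.7 ± 1.34 to 59.4 ± 0.881 (SD, n = 3; LFC -0.19, SE 0.04). Both failed to pass with library size alone, *Kif3a* also without WT2. *Kif3c* was far scarcer, with 51, 56 and 84 counts in WT against 107, 103 and 124 in KO, and was higher (LFC 0.70, SE 0.19, adjusted p = 0.0127, edgeR). Of its exon bases, 35.3% also lie in exons of *1110002L01Rik* on the opposite strand.

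Among kinesin-3 motors, which carry vesicles and endosomes, *Kif1c* was higher, with 397, 321 and 423 counts in WT against 570, 711 and 742 in KO (LFC 0.73, SE 0.11, adjusted p = 4.8e-04, edgeR). *Kif16b*, an early endosome motor, was the weakest DEG among the members (LFC -0.15, adjusted p = 0.0496, edgeR) and did not pass in 12 of 14 other settings, among them the littermate pair as a block in edgeR (adjusted p = 0.0536). *Kif1a*, *Kif1b*, *Kif13a*, *Kif13b* and *Kif14* did not pass, with LFCs from -0.04 to 0.23. With library size alone, *Kif13a* (LFC 0.37, adjusted p = 0.0242, edgeR) and *Kif1b* (LFC 0.21, adjusted p = 0.00998, edgeR) passed as higher. *Kif13a* also passed without KO1 (LFC 0.32, adjusted p = 0.0232, edgeR).

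Kinesin-4 motors, which restrain microtubule growth, also split. *Kif21a* was higher, with 531, 366 and 525 counts in WT against 726, 754 and 870 in KO (LFC 0.63, SE 0.10, adjusted p = 5.11e-04, edgeR), and all KO counts lay above the WT counts. *Kif21b* was lower, with 1795, 1377 and 2228 counts in WT against 1242, 1498 and 1578 in KO (LFC -0.42, SE 0.13, adjusted p = 0.0206, edgeR). The spread of *Kif21b* was wide and it did not pass without WT3 or without KO1, in DESeq2 or with library size alone. *Kif27*, a relative of the Hedgehog regulator KIF7 that acts in motile cilia, fell from 112 ± 1.88 to 91.3 ± 3.70 CPM per kb (SD, n = 3; LFC -0.30, SE 0.05, adjusted p = 6.54e-04, edgeR). *Kif7* had 173, 180 and 240 counts in WT against 168, 171 and 165 in KO and did not pass (LFC -0.34, SE 0.14, adjusted p = 0.0651, edgeR), but passed with a littermate block in edgeR (adjusted p = 0.0388), not in DESeq2 (adjusted p = 0.180), with DESeq2 size factors and without WT1. *Kif4*, a chromosome motor, did not pass (LFC 0.10, adjusted p = 0.515, edgeR).

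The kinesin-13 depolymerases included the most abundant kinesins, and 3 of 4 were lower. This is 75.0%, against 20.6% of all genes and 61.6% of those at 20 CPM per kb or more. *Kif2b* had 17751, 15172 and 16792 counts in WT against 17214, 14725 and 15871 in KO, a level of 423 ± 6.50 CPM per kb in WT and 378 ± 16.6 in KO (SD, n = 3). Its decrease was small (LFC -0.16, SE 0.05, adjusted p = 0.0205, edgeR) and did not pass in 7 of 14 other settings, among them the littermate pair as a block in edgeR (adjusted p = 0.0621), library size alone and the removal of any 1 library other than KO1. *Kif2c*, also called MCAK, had 8136, 6851 and 7587 counts in WT against 6953, 5846 and 5586 in KO, with a larger decrease that passed in every setting (LFC -0.40, SE 0.06, adjusted p = 5.88e-04, edgeR). *Kif2a* fell from 50.5 ± 2.24 to 41.9 ± 2.36 CPM per kb (SD, n = 3; LFC -0.27), with 19.2% of its exon bases in *Dimt1* exons on the opposite strand, and *Kif24*, which acts at the base of cilia, did not pass (LFC -0.04).

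Of 12 kinesins listed for mitosis, meiosis or cytokinesis, 0 were higher and 5 lower (*Kif2c*, *Kif15*, *Kif18a*, *Kif20a* and *Kif22*), and 7 did not pass. The lower share was 41.7%, against 20.6% of all genes. The lower count went to 2 (*Kif2c* and *Kif20a*) without WT1, without KO3 or with library size alone, and to 3 without WT2 or without KO2. *Kif20a*, a motor of the central spindle, was lower with an LFC of -0.28 (SE 0.05), and 29.3% of its exon bases lie in *Cdc23* exons on the opposite strand. *Kif18a* (LFC -0.24), which limits chromosome oscillation, *Kif22* (LFC -0.23), the chromokinesin Kid, and *Kif15* (LFC -0.20), a spindle motor, each did not pass in 5 or 6 of 14 other settings. *Kif11*, the spindle-pole motor Eg5, had 1193, 698 and 539 counts in WT against 1209, 1067 and 974 in KO (LFC 0.33, SE 0.19, adjusted p = 0.184, edgeR). WT1 was high for *Kif11* and overlapped the KO libraries, and the gene passed as higher with a littermate block in edgeR (LFC 0.37, adjusted p = 0.00822), not in DESeq2 (LFC 0.35, adjusted p = 0.234), and without WT1 (LFC 0.63, adjusted p = 0.00542, edgeR).

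Of 8 kinesins listed for cilia and flagella, 0 were higher and 5 lower (*Kif3a*, *Kif3b*, *Kif9*, *Kif19a* and *Kif27*), of which only *Kif27* passed with library size alone and 3 passed without WT2. The lower share was 62.5%, against 20.6% of all genes. Among all genes with a mean level of at least 20 CPM per kb it was 61.6%, and *Kif3a*, *Kif3b*, *Kif9* and *Kif27* were at that level. *Kif9*, a motor of the axonemal central pair needed for sperm motility, had 8596, 7327 and 7967 counts in WT against 8318, 6814 and 7426 in KO (LFC -0.19, SE 0.06, adjusted p = 0.0156, edgeR). *Kif9* did not pass with library size alone or without WT2, KO2 or KO3. *Kif19a*, which trims the tips of motile cilia, had 448, 371 and 433 counts in WT against 384, 347 and 362 in KO (LFC -0.30, SE 0.07, adjusted p = 0.00519, edgeR), and did not pass with library size alone or the pair as a block in DESeq2 (adjusted p = 0.0533). *Kif6*, the other kinesin-9, did not pass (LFC -0.15, adjusted p = 0.268, edgeR).

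Of the minus-end directed kinesin-14 motors, *Kifc3* was lower (LFC -0.24, SE 0.05, adjusted p = 0.00296, edgeR). *Kifc1*, a motor of the spindle and of acrosome formation, did not pass (LFC -0.27, SE 0.12, adjusted p = 0.0797, edgeR) although its scaled ranges did not overlap, and its near copy *Kifc5b* shares 36.6% of its words with it. *Kifc2*, *Kif26a* and *Kif26b*, and the remaining division motors *Kif18b*, *Kif20b* and *Kif23*, did not pass either, with LFCs from -0.41 to -0.01. Without KO1, *Kif18b* passed as lower (LFC -0.15, adjusted p = 0.0308, edgeR).

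Decreases were more frequent among abundant members, as among all genes. At a mean level of at least 20 CPM per kb, a division chosen after the values were seen, 14 of 18 members were lower (77.8%) and 3 higher (16.7%), against 61.6% lower and 7.76% higher of all genes at that level. Under it, 10 of 42 members were lower (23.8%) and 6 higher (14.3%), against 10.4% and 29.1% of all genes. The 3 abundant members that were higher were *Tuba1a*, *Tubb3* and *Tubb5*. In WT they lay under the cut, at 16.4, 17.9 and 17.6 CPM per kb, and in KO at 24.1, 30.6 and 26.6. The cut used the mean of all 6 libraries, so these members reached it only through the KO values. Their share therefore does not show how often abundant members rose. Across the 60 tested members, which share the 6 libraries, Spearman's rho between level and LFC was -0.24 (-0.31 for 43 kinesins and -0.11 for 17 tubulins), and across all genes tested with a known length it was -0.42.

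Other genes of the microtubule system also moved in both directions. Of 113 listed genes, 111 had a row and 107 were tested, of which 18 were higher and 43 lower (median LFC -0.12), or 16.8% and 40.2%, against 24.8% and 20.6% of all genes. With library size alone 25 were higher and 21 lower (5343 and 1268 of all genes), and with a littermate block in DESeq2 9 were higher and 38 lower. The genes named from each list are those with the smallest adjusted p in their direction. The manchette list had 0 of 12 genes higher and 9 lower (75.0%, against 20.6% of all genes and 61.6% of those at 20 CPM per kb or more), or 6 lower with library size alone or without KO2, among them *Cep131* (LFC -0.44). Tubulin-modifying enzymes, which add or remove tyrosine, glutamate or acetyl groups, had 3 of 26 higher (11.5%) and 12 lower (46.2%). With library size alone these counts were 4 and 7. The deacetylase *Hdac6* was among the increases (1205, 910 and 1160 counts in WT, 1652, 1932 and 2051 in KO, LFC 0.68) and the glutamylase *Ttll11* among the decreases (LFC -0.36). Of 8 severing genes, 5 were lower (62.5%), among them *Spast* (LFC -0.31), and 2 higher (25.0%). The higher count was 1 without WT2, WT3 or KO2 and 0 with a littermate block in DESeq2. The higher genes included *Fign*, with only 4, 3 and 2 counts in WT against 12, 10 and 15 in KO (LFC 1.89, SE 0.43, adjusted p = 0.00461, edgeR, and adjusted p = 0.130 with a littermate block in DESeq2).

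Of 19 dynein and dynactin genes, the opposing minus-end motor, 4 were higher (21.1%, against 24.8% of all genes), among them *Dynlrb1* (LFC 0.66), and 7 lower (36.8%, against 20.6% of all genes), among them *Dctn2* (LFC -0.30). Library size alone turned this split to 5 higher and 1 lower, without WT2 it was 1 higher and 4 lower, and without WT1 or without KO2 it was 3 or 2 higher and 4 lower. Among 8 tested kinesin partners, *Kifap3*, the shared non-motor subunit of kinesin-2, was lower (7910, 6693 and 7250 counts in WT, 6955, 5972 and 6090 in KO, LFC -0.31), as *Kif3a* and *Kif3b* were. *Trak2*, an adaptor of kinesin-1 to mitochondria, was higher (LFC 0.58), and in all 2 partners were higher (25.0%) and 1 lower (12.5%). Of 9 tested plus-end and depolymerization factors, 3 were higher (33.3%, or 1 gene without WT2 or with a littermate block in DESeq2), among them *Mapre1* (LFC 0.28), and 4 lower (44.4%, or 1 gene with library size alone), among them *Clasp1* (LFC -0.34). Of 10 structural proteins, 3 were higher (30%), among them *Mtus1* (LFC 0.64), and 2 lower (20%), among them *Map2* (LFC -0.51). The γ-tubulin ring complex had 1 of 8 genes higher (12.5%), *Tubgcp5* (LFC 0.38), and 2 lower (25.0%, or 1 gene without WT2, WT3, KO2 or KO3), among them *Mzt2* (LFC -0.27). With library size alone, 3 were higher and 1 lower. Of 7 folding cofactors, only *Tbca* passed, as lower (LFC -0.17, adjusted p = 0.0382, edgeR), and it did not with a littermate block in DESeq2 (adjusted p = 0.126), with library size alone, where 2 other cofactors were higher, or without WT2, WT3, KO2 or KO3.

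**Figure D5:**
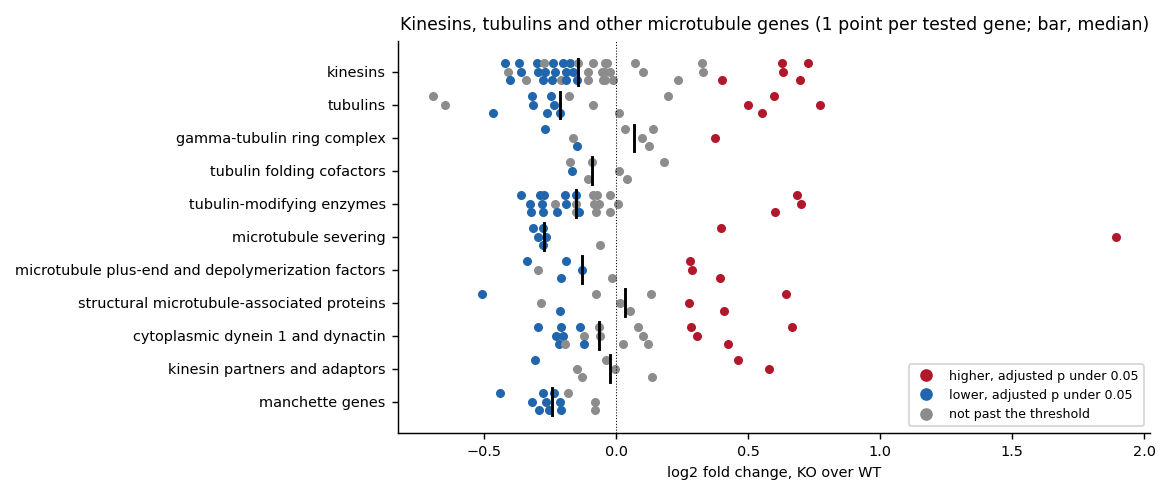
LFC of KO over WT (x axis, log2) of each tested gene, by group, with higher DEGs in red, lower ones in blue and others in grey, and a bar at each group's median. The manchette genes all lie left of 0, while most other groups hold DEGs on both sides. *Fign* at 1.89, which had few counts and passed the filter only through KO, stands alone at the right.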

How the data were processed

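For 3 WT and 3 MLX KO testes, the authors deposited 1 table of raw counts, whole numbers of reads per gene symbol, from 50-base paired reads. Bowtie2, TopHat, DESeq2 and bedtools with build mm10 stand in the submitters' processing notes, and the counting tool, annotation and strand setting are not given in the sources used here. The table also holds the authors' own comparison (mean signal, fold change, its error, test score and p-values), which was not used. Of 17933 rows, 2 repeated rows were dropped. Genes were tested with edgeR 4.0.16 in R 4.3.3 (limma 3.58.1): filter at a minimum count of 10, TMM, a quasi-likelihood test of genotype with no other term, two-sided, and p-values adjusted by Benjamini-Hochberg over 14640 genes at a threshold of 0.05. DESeq2 1.42.0 was an alternative. CPM used TMM-adjusted library sizes, and CPM per kb the summed exon length of the gene, from the GENCODE annotation of the same build. The code was tested on simulated data.

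The same-numbered libraries came from littermates. Their deviations from the group means correlated at 0.145, 0.0363 and 0.121, and the others at most at 0.0330. Fits with the pair as a block were alternatives, as were other size factors, other filters and each library left out in turn. No libraries were duplicates. With 3 animals a genotype, p-values measure the spread between these testes, and counting intervals cover counting error only.

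The members and gene lists were chosen with earlier results of these data known. Counts in every library were given by rule for DEGs with an absolute LFC of at least 0.5, for the most abundant member of the α-tubulins, β-tubulins, light chains and motors, and for members at the floor of 3 counts in 1 genotype only. From each other list, the gene with the smallest adjusted p in each direction was named. Further members given in full were chosen after their values were seen. Of the other listed genes, *Svbp* and *Kifbp* matched no symbol and were not analysed here, and 1 further kinesin is not reported here. Promoters came from RefSeq on GRCm38.p6, with 12 members unmatched. Shared words were counted between GENCODE transcripts at 50 bases. The ChIP-Seq samples were not analysed here.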

Additional observations from a re-analysis of the deposited data

How the results depend on the processing

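Directions of the 33 called members were kept in all 14 alternatives, and of their recomputed calls 407 still passed and 55 did not. Scaling by library size alone moved the number of kinesins past the threshold from 22 to 13 (7 higher, 6 lower), with 9 tubulins, 46 other microtubule genes and 6611 genes in all (5343 higher, 1268 lower). It also turned the LFC of *Klc2* to 0.0324. The LFC of *Tubg1* turned to -0.0208 in DESeq2, -0.0165 with DESeq2 size factors, -0.0200 with the replicate block in DESeq2 and, leaving out 1 library, lay between -0.0209 (without WT2) and 0.0409 (without WT3). The cause was not tested. Leaving out 1 library gave 16 to 23 kinesins, 10 to 12 tubulins, 42 to 69 other microtubule genes and 5130 to 7395 genes in all. With the littermate pair as a block, 22 kinesins, 12 tubulins, 59 other microtubule genes and 6743 genes passed in edgeR, and 18, 10, 47 and 4579 in DESeq2. The block changed no call of a member or of a microtubule gene named in the text, other than *Kif11*, *Kif7* and *Tubb6*, gained, and *Kif16b*, *Kif2b*, *Kif19a*, *Kif22*, *Klc1*, *Tuba1c*, *Tbca* and *Fign*, lost in at least 1 of both fits. Depth limits *Tubb1*, *Tubb2b*, *Tubb4a* and *Tubg2*, which had few counts.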
